A study of Mus musculus with 44 samples.

Results

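Of 43 genes for nuclear receptors, 29 had a mean of at least 10 normalized counts over 4 RNA-seq libraries of mouse granulosa cells. With GDF9, limma called *Esr2* higher and *Nr5a2* lower, against 2.44% and 0.707% of all tested genes. DESeq2, refitted here, called neither. The 43 genes were taken as a family by name, without the *Nr4a* genes, and all 43 were found in the deposited table. The 29 tested members are among 12597 genes that passed the same limit. A normalized count is the number of reads of a gene divided by 1 size factor per library. The limit used the mean over both treatments, so neither treatment chose the members. *Nr3c2* lay just inside it with a mean of 11.2, and *Rarb* just outside with 8.77.

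Nuclear receptors are transcription factors that bind DNA as monomers, homodimers or heterodimers with a retinoid X receptor, and many switch between corepressors and coactivators when a small lipophilic ligand binds. Steroid receptors leave their chaperones on binding hormone, whereas orphan receptors such as those of the NR5A family have no settled physiological ligand or act without one. Granulosa cells surround the oocyte, make estradiol and, after the ovulatory signal, progesterone. In these cells estrogen receptor β, the product of *Esr2*, and the 2 NR5A receptors are known regulators of follicle growth, steroid synthesis and ovulation.

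Granulosa cells came from mice of 3 to 4 weeks of age primed with PMSG, a gonadotropin that drives follicle growth, and were pooled over mice and cultured before treatment. Cells received GDF9, a growth factor of the TGFβ family that the oocyte secretes, or vehicle (Veh) for 4 h. RNA was sequenced from 2 GDF9 and 2 Veh libraries, which the study's methods place in Smad3PA/PA cells, with a PA tag at the N terminus of SMAD3 on both alleles. The RNA labels give no genotype. CUT&RUN, which cuts and sequences DNA beside an antibody's target, was done with 2 replicates per treatment in Smad3PA/PA cells (SMAD2, PA, SMAD4, H3K27ac) and in Smad2HA/+ cells, which carry an HA tag at the C terminus of SMAD2 on 1 allele (SMAD2, HA, SMAD3, H3K27ac). SMAD2 and SMAD3 are the factors that carry the GDF9 signal to DNA, SMAD4 is their common partner, and H3K27ac marks active promoters and enhancers. Every cell was from a tagged line, and no untagged cells and no IgG lists were analysed here.

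The RNA libraries held between 8827825 and 11416005 reads in genes. Mitochondrially encoded genes took 3.38% and 3.07% of normalized counts in GDF9 libraries, against 2.37% and 2.35% in Veh libraries, and *Malat1*, a nuclear noncoding RNA, took 0.282% and 0.264% against 0.108% and 0.110%. The part of these differences in the results on receptors was not tested. Granulosa cells were recognisable by *Foxl2* with a mean of 801 normalized counts and *Inha* with 14392, but 2 defining markers were near 0 in every library: *Cyp19a1* had a mean of 2.00 and *Amh* of 1.49. Of 10 tested granulosa markers 3 were called: *Fst*, which encodes the activin antagonist follistatin, was higher, with 863 and 839.8 in GDF9 libraries, against 664 and 654 in Veh libraries (log2 fold change 0.37, SE 0.061), *Hsd17b1* was higher, and *Kitl*, a ligand that granulosa cells present to the oocyte, was lower, with 1837 and 1783, against 2321 and 2128 (log2 fold change -0.30, SE 0.048). The summed normalized counts of this list were 37374 and 37602 in GDF9 libraries and 36790 and 37516 in Veh libraries. The part of these markers in the changes of receptors was not tested. Of lists of theca, stroma, endothelium, macrophage, surface epithelium and oocyte markers, with 1 to 6 tested genes each, none had a called gene. Of all tested genes 2.44% were called higher and 0.707% lower, so no call is unremarkable in lists this small. Their summed normalized counts in GDF9 and Veh libraries were 181 to 212 and 185 to 233 for theca, 2520 to 2555 and 2560 to 2608 for stroma, 127 to 132 and 103 to 107 for macrophages, and 5567 to 5760 and 5398 to 5563 for epithelium. Endothelial and oocyte sums stayed under 50, and *Insl3*, a defining theca marker, was at 0. Fewer cells of a type and less RNA per cell cannot be told apart in such bulk samples.

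Promoter and binding sequences of *Esr2* and *Nr5a2* are shown because these were the called members. The first line is the 250 bases before the start of *Esr2*, the start that lay under H3K27ac in both lines. The second is the 250 bases before the annotated outermost start of *Nr5a2*, where H3K27ac was not found, and the third those before an internal predicted start of *Nr5a2* that lay under H3K27ac. The fourth is the center of the SMAD region in *Esr2* that held the highest SMAD signal near this gene. All are read 5′ to 3′ on the minus strand, on which both genes lie, and come from RefSeq on GRCm38.p6, the assembly called mm10. Capitals mark the receptor binding core AGGTCA in the first 3 lines and the repeated unit TTTC in the last.

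Esr2 promoter, chr12:76177260-76177509, minus strand: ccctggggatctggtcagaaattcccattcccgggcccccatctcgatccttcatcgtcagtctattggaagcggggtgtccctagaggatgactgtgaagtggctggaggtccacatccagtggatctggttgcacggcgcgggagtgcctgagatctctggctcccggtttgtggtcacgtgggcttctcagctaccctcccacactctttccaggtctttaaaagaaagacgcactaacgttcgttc
Nr5a2 outermost start, chr1:136960449-136960698, minus strand: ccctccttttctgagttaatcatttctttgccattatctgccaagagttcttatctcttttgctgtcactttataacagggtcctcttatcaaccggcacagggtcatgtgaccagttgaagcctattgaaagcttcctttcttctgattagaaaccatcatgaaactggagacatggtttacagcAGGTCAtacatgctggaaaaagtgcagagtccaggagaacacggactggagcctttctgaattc
Nr5a2 internal start, chr1:136949578-136949827, minus strand: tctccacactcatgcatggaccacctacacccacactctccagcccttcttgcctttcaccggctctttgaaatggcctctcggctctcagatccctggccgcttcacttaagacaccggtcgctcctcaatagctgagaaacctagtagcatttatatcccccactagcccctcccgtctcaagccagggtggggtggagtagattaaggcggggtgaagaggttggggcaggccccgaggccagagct
Esr2 SMAD region center, chr12:76167859-76168158, minus strand: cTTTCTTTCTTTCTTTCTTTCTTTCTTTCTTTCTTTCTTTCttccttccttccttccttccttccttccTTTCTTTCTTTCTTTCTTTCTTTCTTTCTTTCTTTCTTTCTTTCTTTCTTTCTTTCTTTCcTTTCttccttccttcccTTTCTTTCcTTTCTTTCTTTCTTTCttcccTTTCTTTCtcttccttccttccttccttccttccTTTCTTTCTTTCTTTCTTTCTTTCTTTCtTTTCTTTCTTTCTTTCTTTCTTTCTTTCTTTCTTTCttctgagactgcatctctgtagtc

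The letters CAGAC, which occur in SMAD binding sites, were found on neither strand of the *Esr2* promoter nor of the *Nr5a2* promoters shown. Over 12747 promoters of tested genes with an entry in the RefSeq table, 40.5% held CAGAC, and 13 of 39 promoters of tested members, 33.3%, did. The receptor core AGGTCA was in 10.8% of these promoters and in 9 of 39 promoters of members, 23.1%. It occurred once before the outermost start of *Nr5a2* and in no other of the promoters shown. The longer CAAGGTCA, a core that NR5A and estrogen-related receptors read and that contains AGGTCA, was in 0.902% of promoters and in 0 of 39 promoters of members. All were counted on both strands, 39 promoters came from 26 of the 29 tested members, and a match or its absence is a description of these letters only.

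**Figure D1:**
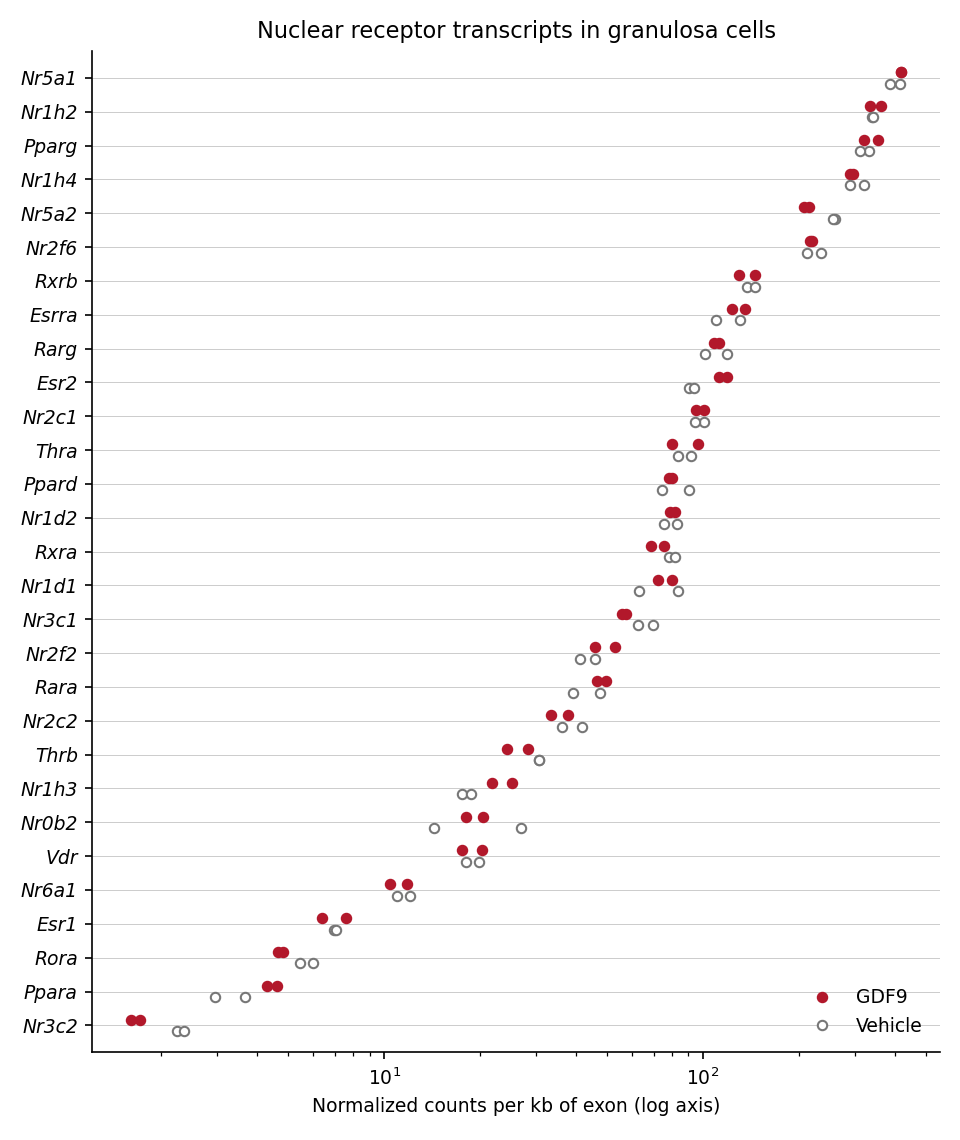
Level of each of 29 nuclear receptor genes in 4 libraries, as normalized counts per kb of exon on a log axis, with filled red points for GDF9 and open points for Veh. *Nr5a1*, with a mean of 409, is at the top and *Nr3c2*, with 1.98, at the bottom, and points of both treatments overlap for most genes.

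Levels between receptors were compared per kb of exon. *Nr5a1*, which encodes SF-1, an activator of steroidogenic genes, was the highest member with 409 normalized counts per kb, above 85.5% of tested genes. It was followed by *Nr1h2* with 343, *Pparg* with 329, *Nr1h4* with 298, *Nr5a2* with 234 and *Nr2f6* with 220.5. These encode an oxysterol receptor (LXRβ), a fatty acid receptor, the bile acid receptor FXR, LRH-1 and the orphan repressor EAR2. *Rxrb*, *Esrra*, *Rarg* and *Esr2* came next with 139.6, 125, 110.0 and 104, and *Esr2* stood near the middle of all genes, above 50.6% of them. At the low end were *Esr1* with 6.99 in GDF9 and 7.01 in Veh libraries, and over both treatments *Rora* with 5.22, *Ppara* with 3.88 and *Nr3c2* with 1.98. Of the 28 pairs of neighbours in this order, 18 had ranges over the 4 libraries that overlapped, so their order is not settled. *Nr5a1* stood apart from *Nr1h2* below it.

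Another 14 members had a mean under 10 and were not tested. Of these, 9 had reads: *Rarb* with a mean of 8.77 normalized counts, *Esrrg* with 4.84, *Nr2f1* with 2.75, *Nr1i2* with 1.76, *Rorb* with 1.29, *Nr1i3* with 1.26, *Esrrb* with 0.50 and *Nr2e1* with 0.22, together with *Pgr*. *Pgr* encodes the progesterone receptor, which granulosa cells induce at ovulation, and its values were 2.01 and 0.968 in GDF9 libraries and 1.15 and 1.77 in Veh libraries. No read was counted for *Rxrg*, *Hnf4a*, *Hnf4g*, *Nr2e3* and *Nr0b1*, and 0 reads allow up to 3.02 and 2.90 normalized counts in GDF9 libraries and 3.45 and 2.66 in Veh libraries. This limit covers counting error only.

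**Figure D2:**
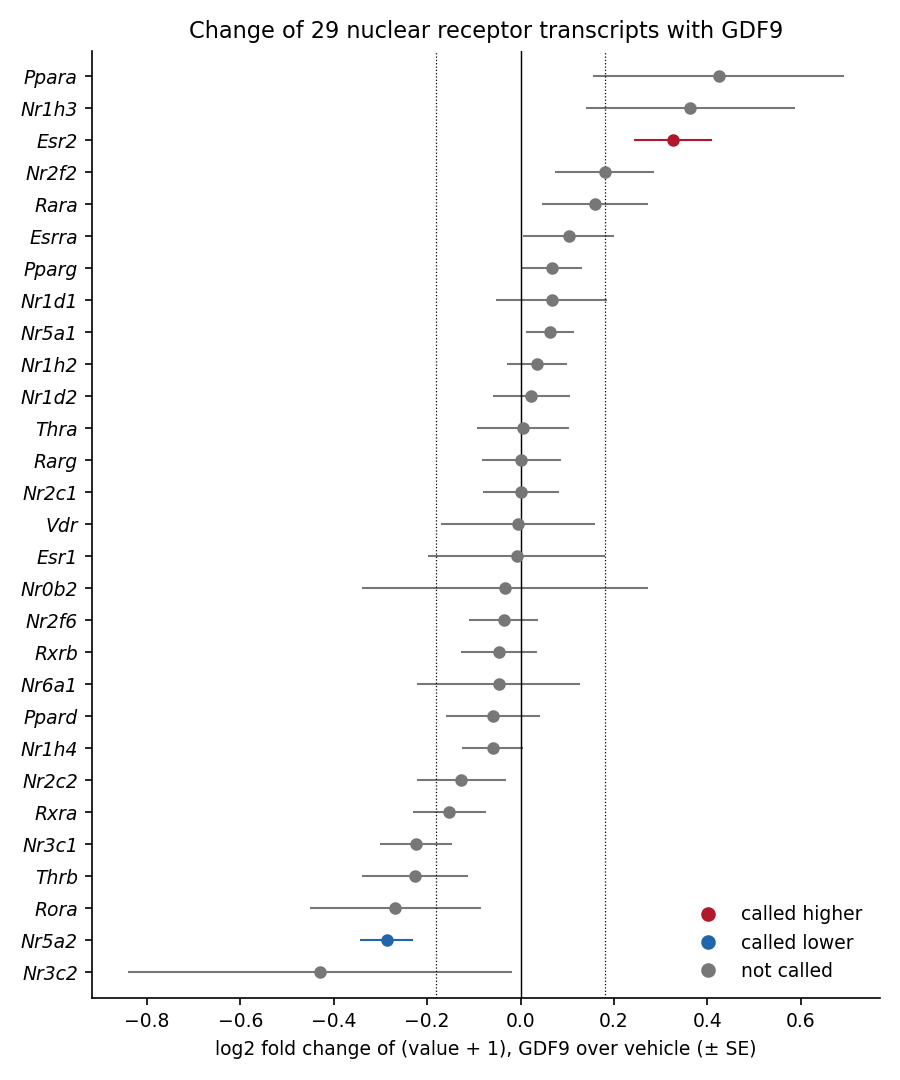
Change of 29 nuclear receptor transcripts, as log2 fold change of (value + 1), GDF9 over Veh, with bars of 1 standard error and dotted lines at the fold limit of 0.18. *Esr2* at 0.33 is the member called higher and *Nr5a2* at -0.29 the member called lower.

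The question of the RNA comparison was which receptor transcripts GDF9 changed within 4 h. A gene was called at an adjusted p under 0.05 over all 12597 genes (limma with trend) and a log2 fold change above 0.18 or below -0.18, limits that the study states. Of all tested genes 2.44% were called higher and 0.707% lower, against 1 and 1 of 29 members. edgeR on recovered reads called 3.22% of all genes, either way, and the same 2 members, and DESeq2 called 1.12% of all genes and 0 members. The study's own DESeq2 fit reported more genes at these limits than limma, edgeR or DESeq2 called here. Its values for the members were not examined. The median log2 fold change was -0.01 over the members and -0.01 over all genes, and the median size of change, whatever its sign, was 0.07 over the members and 0.09 over all genes. Fold changes of members ran from -0.43 to 0.42, with 14 above and 15 below 0. Of the members, 3 had an unadjusted p under 0.05, 10.3%, against 15.6% of all genes. Values of both GDF9 libraries lay above both Veh libraries in 4 members, 13.8%, against 22% of all genes, and below in 6 members, 20.7%, against 23.2%. Of 29 members, 7 had a fold change beyond the limit without being called, and 4 of the tested members had a mean under 50.

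Among the estrogen receptors and their relatives, *Esr2* rose and *Esr1* had nearly equal values in both treatments. *Esr2* had 399 and 376 normalized counts in GDF9 libraries, against 303 and 315 in Veh libraries. Both GDF9 libraries stood above both Veh libraries, with means of 388 ± 15.8 and 309 ± 8.03 (SD, n = 2 each), and the log2 fold change was 0.33 (SE 0.083, adjusted p = 0.0207 with limma). Without Veh replicate 1 the adjusted p was 0.185, without Veh replicate 2 it was 0.0603 and without GDF9 replicate 1 it was 0.137, with fold changes of 0.30, 0.35 and 0.28. DESeq2 on recovered reads did not call it at an adjusted p of 0.470. *Esr1*, which encodes estrogen receptor α, found mainly in theca and stroma of the ovary, had 66.5 and 56.1 in GDF9 libraries, against 60.9 and 62.0 in Veh libraries. Their ranges overlapped and the log2 fold change was -0.01 (SE 0.19). *Esrra*, an orphan receptor that drives mitochondrial genes, had 303 and 276 against 247 and 293 in Veh libraries, with overlapping ranges and a log2 fold change of 0.10 (SE 0.098). Its relatives *Esrrb* and *Esrrg* were under the limit.

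The NR5A genes differed in outcome. *Nr5a2* encodes LRH-1, which granulosa cells need for ovulation and luteinization, and it had 829 and 797 normalized counts in GDF9 libraries, against 1000.3 and 983 in Veh libraries. Both GDF9 libraries lay below both Veh libraries, with means of 813 ± 22.3 and 991 ± 12.5 (SD, n = 2 each), a log2 fold change of -0.29 (SE 0.057) and an adjusted p of 0.00189 with limma. The call was lost without Veh replicate 1 (adjusted p = 0.0511) and with DESeq2 (adjusted p = 0.0909), at fold changes of -0.27 and -0.28. *Nr5a1* had 1327 and 1329 in GDF9 libraries, against 1224 and 1320.2 in Veh libraries. The ranges did not overlap, but Veh replicate 2 lay close to the GDF9 libraries, and the log2 fold change of 0.06 (SE 0.052, adjusted p = 0.614 with limma) was under the limit. Both proteins bind the same DNA core, and the difference between the changes of the 2 genes was not tested.

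**Figure D3:**
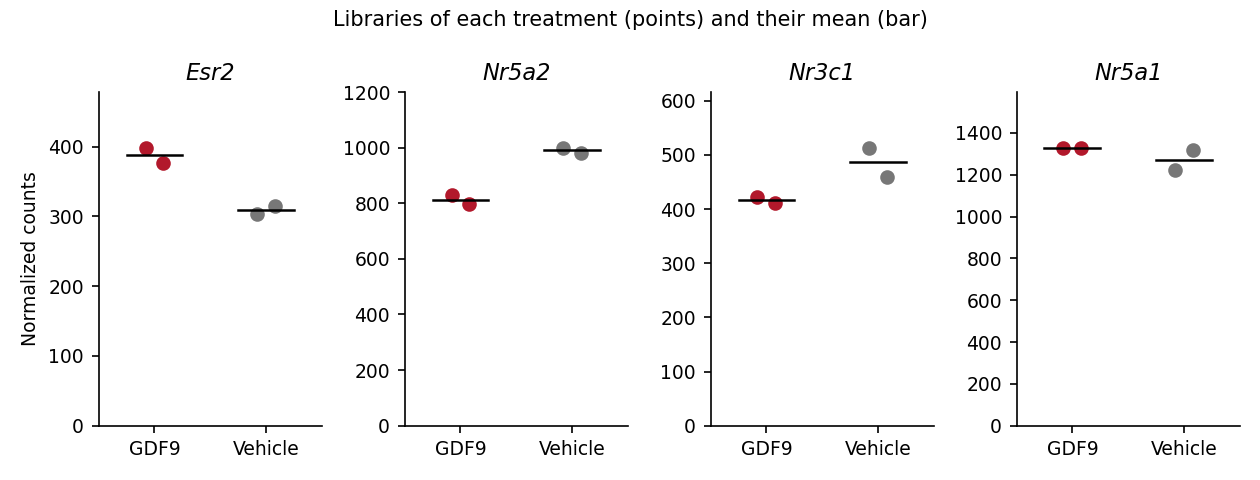
Normalized counts of *Esr2*, *Nr5a2*, *Nr3c1* and *Nr5a1* in each library, with points for libraries, GDF9 left of Veh, and a bar at each mean. For *Esr2* the GDF9 points, at 399 and 376, lie above the Veh points, and for *Nr5a2* and *Nr3c1* they lie below them.

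Of the receptors for other steroids none was called. *Nr3c1*, the glucocorticoid receptor gene, had 422 and 410.2 normalized counts in GDF9 libraries, against 513 and 459.9 in Veh libraries. The ranges did not overlap and the log2 fold change was -0.22 (SE 0.077), but the adjusted p of 0.115 with limma, the lowest of the 27 uncalled members, missed the threshold. *Nr3c2*, which encodes the mineralocorticoid receptor, had 9.06 and 9.68 in GDF9 libraries, against 12.6 and 13.3 in Veh libraries. It had the lowest fold change of the members, -0.43, and also the largest standard error, 0.41, on so few reads.

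The retinoid X receptors are the common partners of the retinoid, thyroid hormone, vitamin D, PPAR, LXR and FXR receptors. *Rxra* had 411 and 375 normalized counts in GDF9 libraries, against 428 and 445 in Veh libraries. Both GDF9 values were lower, with a log2 fold change of -0.15 (SE 0.078, adjusted p = 0.352 with limma). *Rxrb* had 403 and 358 in GDF9 libraries, against 381 and 403 in Veh libraries, with overlapping ranges, and *Rxrg* had no read. Of the retinoic acid receptor genes, *Rara* had 202 and 216, against 170.0 and 206, and *Rarg* had 381 and 367, against 345 and 404 in Veh libraries. Their ranges overlapped, and the log2 fold changes were 0.16 (SE 0.11) and 0.00 (SE 0.085).

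*Thra* and *Thrb* encode the thyroid hormone receptors. *Thrb* had 159 and 185 normalized counts in GDF9 libraries, against 201 and 200.2 in Veh libraries, and its log2 fold change of -0.23 (SE 0.11, adjusted p = 0.338 with limma) was not called although both GDF9 values were lower. *Thra* had 306 and 254, against 292 and 265 in Veh libraries, with overlapping ranges. *Vdr*, for the vitamin D receptor, had 76.5 and 88.0, against 86.1 and 78.9, and overlapped as well.

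The sensors of fatty acids, oxysterols and bile acids held 3 of the 4 most abundant receptors, none of which was called. *Nr1h2* had 732 and 674 normalized counts in GDF9 libraries, against 683 and 688 in Veh libraries, and *Pparg* had 824 and 740.2, against 767 and 723. *Nr1h4* had 689 and 675, against 678 and 746 in Veh libraries. All 3 overlapped between treatments, with log2 fold changes of 0.04 (SE 0.064), 0.07 (SE 0.064) and -0.06 (SE 0.065). Their low paralogs had larger fold changes with larger standard errors. *Nr1h3*, the LXRα gene, had 44.3 and 51.3 in GDF9 libraries, against 35.6 and 38.1 in Veh libraries (log2 fold change 0.36, SE 0.22, adjusted p = 0.457 with limma). *Ppara* had 32.2 and 34.8, against 27.6 and 22.2 (log2 fold change 0.42, SE 0.27, adjusted p = 0.471 with limma). Both were above in each GDF9 library and neither was called. *Ppard*, a widely expressed fatty acid receptor, had 251 and 257, against 240.0 and 292, and overlapped. *Nr0b2*, which encodes SHP, a repressor without a DNA-binding domain that FXR induces in liver, had 26.2 and 23.2 in GDF9 libraries, against 18.4 and 34.6 in Veh libraries, where the replicates differed more than the treatments.

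Receptors of the clock overlapped between treatments except for *Rora*. *Nr1d1* and *Nr1d2* encode the REV-ERB repressors, and RORα activates at the same sites. *Rora* had 59.4 and 57.1 normalized counts in GDF9 libraries, against 73.5 and 67.3 in Veh libraries (log2 fold change -0.27, SE 0.18, adjusted p = 0.516 with limma). *Nr1d1* had 199 and 221, against 231 and 174 in Veh libraries. *Nr1d1* and *Thra* lie on opposite strands and share 471 bp of exon, 17.0% of the exon length of *Nr1d1* and 7.04% of that of *Thra*. The libraries were directional, but the strand setting of the counting is not given in the sources used here, so reads of the shared stretch may have gone to either gene. *Nr1d2* had 367 and 379, against 350.3 and 385, with a log2 fold change of 0.02 (SE 0.082).

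Of the orphan receptors, *Nr2f2*, known as COUP-TFII, had 258 and 223 normalized counts in GDF9 libraries, against 199.8 and 223 in Veh libraries. Its log2 fold change was 0.18 (SE 0.11, adjusted p = 0.432 with limma), with GDF9 replicate 2 and Veh replicate 2 at nearly one level. *Nr2f6* had 485 and 479.9, against 469.7 and 521, and *Nr2c1*, for testicular receptor TR2, had 363 and 384, against 385 and 362. *Nr2c2*, for TR4, had 269.9 and 305 in GDF9 libraries, against 336 and 292 in Veh libraries, and shares 43.1% of its exon length with *Mrps25* on the opposite strand. *Nr6a1*, for germ cell nuclear factor, had 74.5 and 65.8, against 75.8 and 69.1. All of these overlapped between treatments and had adjusted p-values of 0.432 or above with limma.

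Genes that serve the receptors were described through lists chosen with earlier results of these data known. Shares of called genes to read their counts against are those of all tested genes, 2.44% higher and 0.707% lower. The counts were small, 0 to 3 per list and direction, and their difference from these shares was not tested. Of 19 tested coactivators none was called higher and *Trim24*, which binds several receptors and acetylated histones, fell, with 380 and 431 normalized counts in GDF9 libraries, against 504 and 478 in Veh libraries (log2 fold change -0.28, SE 0.078, adjusted p = 0.0379 with limma). The median log2 fold change of the coactivators was 0.00. Of 15 corepressors none was called, with a median of 0.04. Of 14 chaperones of steroid receptors, *Fkbp5*, an inhibitor of the glucocorticoid receptor that the receptor itself induces, fell, with 4154 and 4308 against 5059 and 5027 in Veh libraries (log2 fold change -0.25, SE 0.038). The chaperones had a median of -0.05, against -0.01 over all tested genes.

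Of 22 tested genes for the synthesis, transport and breakdown of ligands, 1 was called higher and 1 lower, with a median log2 fold change of 0.06. *Hsd17b1*, which makes estradiol from estrone, had 1732 and 1717 normalized counts in GDF9 libraries, against 1422 and 1403 in Veh libraries (log2 fold change 0.29, SE 0.048). *Cyp26b1*, which degrades retinoic acid, had 1234 and 1142, against 1571 and 1622 (log2 fold change -0.43, SE 0.052, adjusted p = 1.3e-06 with limma). Of 46 tested genes known as targets of nuclear receptors, 2 were called higher and 3 lower, with a median of -0.01. Those higher were *Scarb1*, the receptor for HDL cholesterol, at 0.20 (SE 0.034), and *Greb1*, an estrogen-induced gene in breast cells, at 0.21 (SE 0.038). Those lower were *Cyp26b1* and *Fkbp5*, as above, and *Adamts1*, a protease that the progesterone receptor induces at ovulation, at -0.33 (SE 0.070). *Greb1* had 6437 and 5989 in GDF9 libraries, against 5404 and 5365 in Veh libraries, and *Adamts1* had 505 and 462, against 622 and 596. Retinoic acid induces *Cyp26b1* in many cells.

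H3K27ac was examined over the starts of the receptors and within 20 kb of them. The 4 lists of Smad3PA/PA cells (2 GDF9, 2 Veh) held peaks of 2940.5 to 3288 bp median width. In Smad2HA/+ cells they held blocks of 18565 to 29257 bp median width that covered 456 to 472 Mb, so that a start there lies more easily under a peak. A peak covered the start in all 4 Smad3PA/PA lists for 15 of 29 tested members, 51.7%, against 51.5% of all tested genes, and in all 4 Smad2HA/+ lists for 20 members, 69.0%, against 69.0%. Of the 14 members under the RNA limit, 0 had this in either line, against 4.72% and 11.2% of all such genes. With any annotated transcript start in place of the outermost one, an alternative chosen after the data were seen, the counts of tested members were 20 and 26, or 69.0% and 89.7%, against 60.1% and 72.9% of all tested genes. This gap was not tested. *Nr3c1*, *Rora*, *Nr2f2*, *Nr5a2* and *Thrb* were covered in all 4 lists of a line only at starts other than the outermost one, and at *Vdr*, *Nr3c2* and *Ppara* no list of either line had a peak over a start.

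*Esr2* and *Nr5a2* differed in which start was marked. The start of *Esr2* (chr12:76120419-76177259, minus strand) lay under peaks of all 4 lists in both lines. The Smad3PA/PA peaks were 4638 and 5369 bp wide with GDF9, against 4096 and 4477 bp with Veh, with a maximum signal of 20.4 and 32.2 against 26.5 and 30.4. In Smad2HA/+ cells the start lay in blocks of 381455 and 387299 bp with GDF9, against 401197 and 390085 bp with Veh. The outermost start of *Nr5a2* (chr1:136842562-136960448, minus strand) lay under no peak of any list. The nearest Smad3PA/PA peaks were 9490 and 9184 bp from it with GDF9, against 10533 and 9399 bp with Veh, all inside the gene. They covered a predicted start 10871 bp inside the gene, while the start 6818 bp inside was covered by the 4 Smad2HA/+ lists and by 0 Smad3PA/PA lists. Which start the *Nr5a2* transcripts used was not tested.

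**Figure D4:**
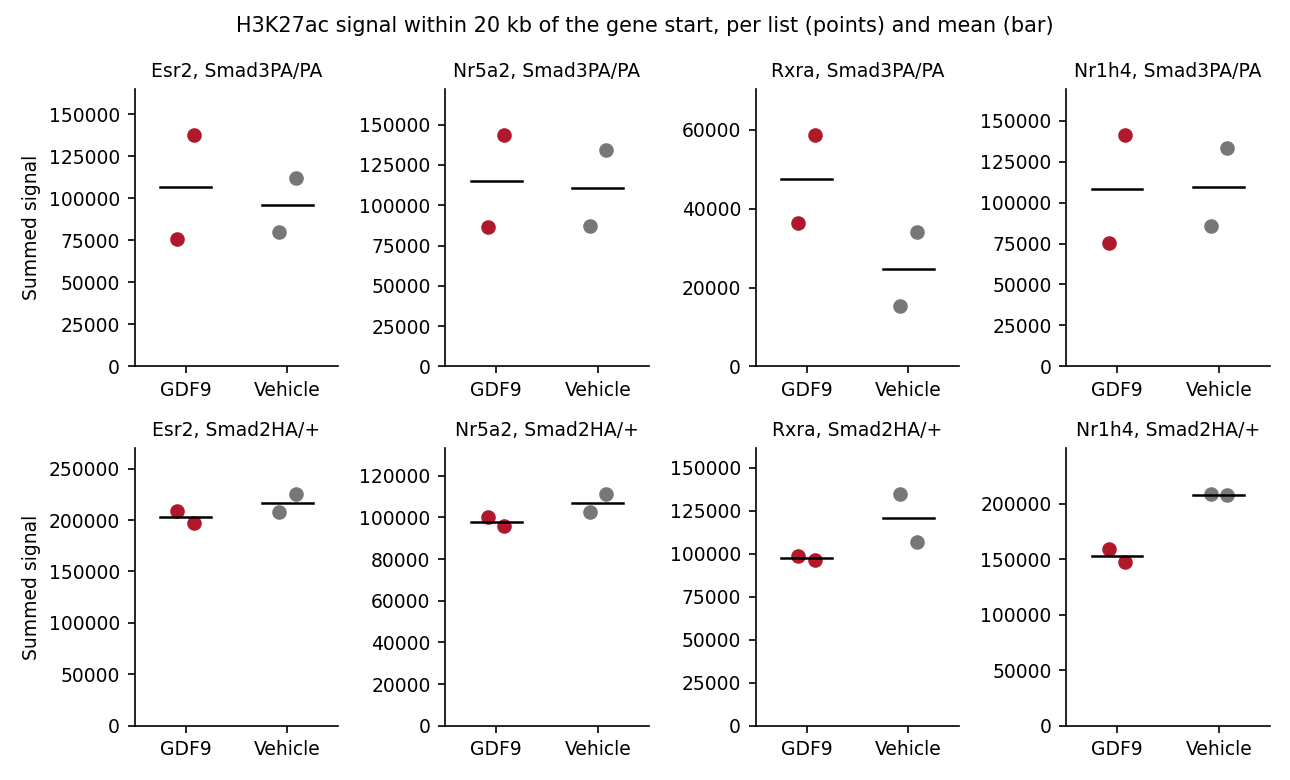
Summed H3K27ac signal within 20 kb of the gene start, in spike-in scaled units, for *Esr2*, *Nr5a2*, *Rxra* and *Nr1h4* in Smad3PA/PA cells (top) and Smad2HA/+ cells (bottom), with a point per list, GDF9 left of Veh, and a bar at the mean. Of these 4, only *Rxra* is higher in both GDF9 lists of Smad3PA/PA cells, and *Nr1h4*, *Nr5a2* and *Rxra* are lower in both GDF9 lists of Smad2HA/+ cells.

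No member's summed H3K27ac signal within 20 kb was called with GDF9. For Smad3PA/PA cells limma called 0.0735% of 9526 genes, in either direction, and 0 of the 23 members with signal in all 4 lists. In Smad2HA/+ cells 0% of 10174 genes were called and 0 of 24 members, while 658 of all genes and 2 members had an unadjusted p under 0.05. In the Smad3PA/PA test 81 of all genes and 0 members had one. The signal is coverage scaled to E. coli spike-in reads, summed over peaks, and replicates differed widely in Smad3PA/PA cells, where the standard errors of members were 0.52 to 0.66 on the log2 scale. In Smad2HA/+ cells they were 0.092 to 0.36, so smaller differences of this sum could be seen there. A block wider than the window entered the sum by its mean signal, however. A difference confined to the window could thus be missed in this line. The median log2 fold change over all genes was -0.07 and -0.04 in the 2 lines, and over the members -0.04 in each.

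At *Esr2* the summed H3K27ac signal was 75984 and 137567 in GDF9 lists, against 80093 and 112022 in Veh lists of Smad3PA/PA cells. In Smad2HA/+ cells it was 208400 and 196762, against 208131 and 224855. Ranges overlapped in both lines, with log2 fold changes of 0.11 (SE 0.52) and -0.10 (SE 0.094), while the RNA was higher. At *Nr5a2* the signal was 86387 and 143465 in GDF9 lists, against 87432 and 134032 in Veh lists of Smad3PA/PA cells (log2 fold change 0.04, SE 0.52). In Smad2HA/+ cells both GDF9 lists, at 99958 and 95863, were below the Veh lists, at 102759 and 111005 (log2 fold change -0.13, SE 0.12, adjusted p = 0.877 with limma).

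The lowest p of a member was that of *Nr1h4* in Smad2HA/+ cells, with a signal of 159099 and 147211 in GDF9 lists, against 208230 and 208116 in Veh lists (log2 fold change -0.44, SE 0.094, unadjusted p = 0.0063, adjusted p = 0.511 with limma). Its RNA overlapped between treatments, and in Smad3PA/PA cells its signal did too, with 75421 and 141080.0 against 85412 and 133477. *Rarg* had 54018 and 52582 with GDF9, against 71270.0 and 81821 with Veh in Smad2HA/+ cells (log2 fold change -0.52, SE 0.17, adjusted p = 0.680 with limma). *Rxra* had opposite differences in the 2 lines. In Smad3PA/PA cells it had 36376 and 58616 with GDF9, against 15371 and 34154 with Veh (log2 fold change 1.01, SE 0.59), and in Smad2HA/+ cells 98701 and 96376, against 134560 and 107011 (log2 fold change -0.30, SE 0.15). Neither was called. The windows of *Thra* and *Nr1d1* overlap only in part. In each Smad2HA/+ list 1 peak covered both windows whole, and its signal was shared out by width, so their sums were identical. In Smad3PA/PA cells the sums differed, with 75089 and 67665 at *Thra* and 129127 and 190119 at *Nr1d1* with GDF9.

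SMAD regions, places where peaks of both replicates of an antibody and treatment overlap, were counted within 20 kb of the start of each tested member, without a test, since 2 lists against 2 cannot reach an exact p under 0.05. In Smad3PA/PA cells 13 of 29 members had a region of any of the 3 antibodies with GDF9, 44.8%, against 41.1% of all tested genes, and 9 with Veh, 31.0%, against 29.4%. In Smad2HA/+ cells 27 members, 93.1%, had one with GDF9, against 90.9% of all genes, and 28 with Veh, 96.6%, against 93.5%. The members thus stood near the share of all genes in each line and treatment. By antibody, the Smad3PA/PA lists had SMAD2 regions near 7 members with GDF9 and 2 with Veh, PA regions near 2 and 2, and SMAD4 regions near 9 and 5. PA regions were near 4.40% of all tested genes with GDF9 and 3.95% with Veh, and SMAD4 regions near 28.4% and 25.6%, against 31.0% and 17.2% of members. In Smad2HA/+ cells SMAD2 regions were near 21 members with GDF9 and 23 with Veh, HA regions near 23 and 27, and SMAD3 regions near 25 and 28, where the shares of all genes with GDF9 and Veh were 70.2% and 78.8%, 81.9% and 87.4%, and 84.4% and 89.9%. For SMAD2 in Smad3PA/PA cells the shares of all genes were 19.2% with GDF9 and 2.18% with Veh. Here the list of Veh replicate 2 stands apart, with 23082 peaks on chromosomes, where the other SMAD lists of this line have 58442 to 83620. Within that replicate alone 8 members had a SMAD2 peak with Veh, and in Veh replicate 1 alone 20 had one, against 15 and 21 in GDF9 replicates 1 and 2.

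**Figure D5:**
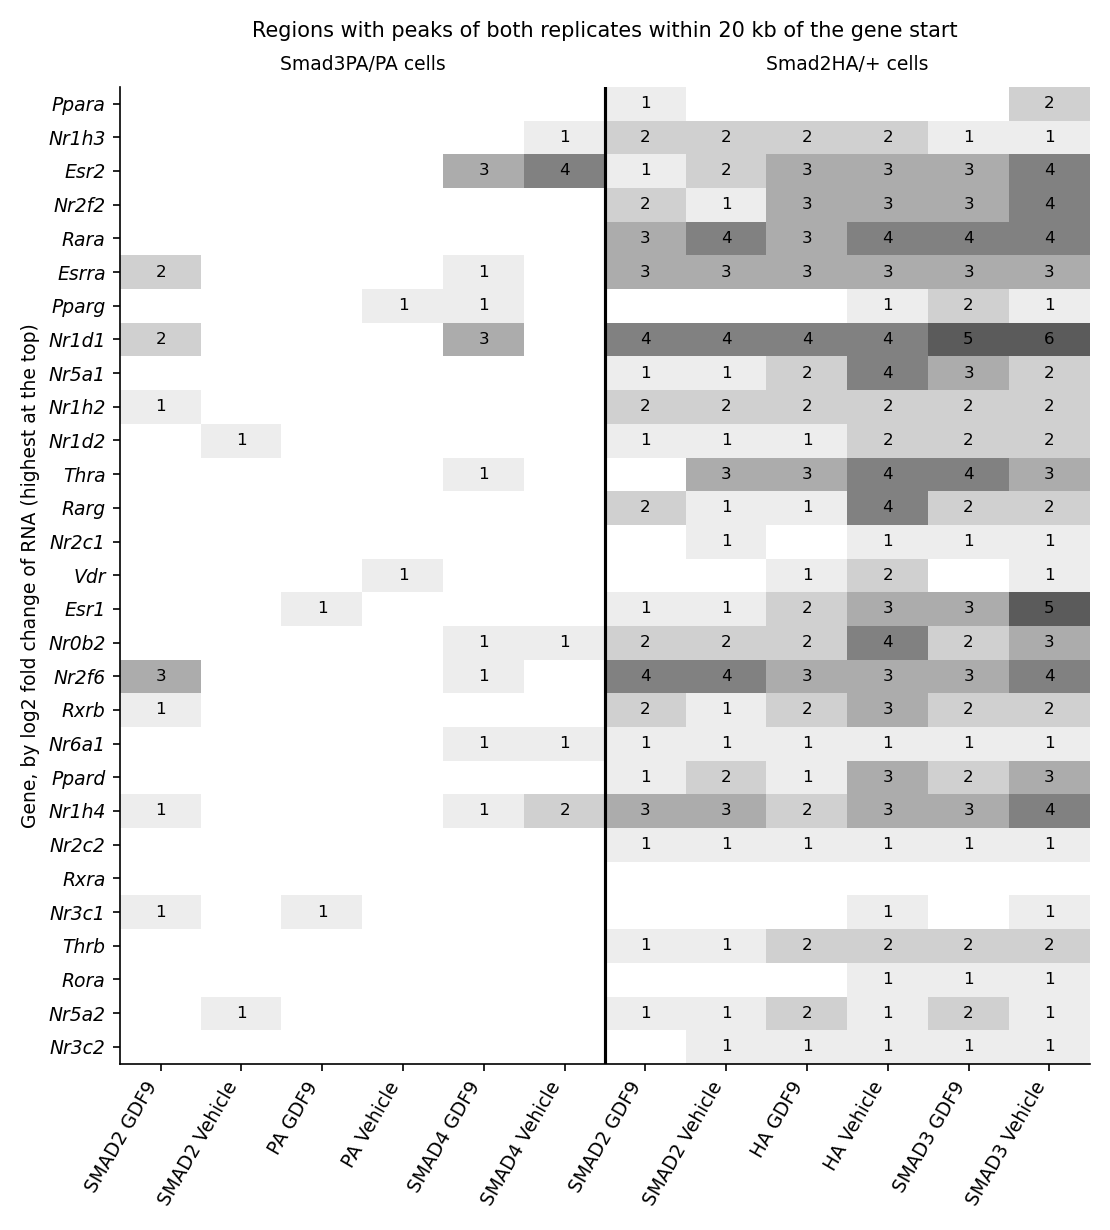
Number of regions with peaks of both replicates within 20 kb of the start of each of 29 nuclear receptor genes (down the page, by log2 fold change of RNA, highest at the top), for each antibody with GDF9 and with Veh. Smad3PA/PA cells are on the left, with 13 members holding a region with GDF9, and Smad2HA/+ cells on the right, with 27, and *Rxra* has none in any column.

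Near the 29 members the Smad3PA/PA lists held 26 regions with GDF9 and 13 with Veh. Of the 26, 18 had no Veh peak of the same antibody: 2 of 2 PA, 8 of 11 SMAD2 and 8 of 13 SMAD4 regions, where 64.5%, 60.8% and 40.7% of all such regions of the genome had none. Of the 13, 7 had no GDF9 peak: 2 of 2 PA, 2 of 2 SMAD2 and 3 of 9 SMAD4 regions, where the shares of all regions were 52.0%, 46.0% and 43.1%. On counts this small the members are not told apart from all regions. Heights were low, with 2 to 18 reads at the highest point of the GDF9 regions and 2 to 9 of the Veh regions, so presence and absence of a peak rest on a few reads. The tallest was a SMAD4 region centered 109 bp inside *Esrra* with 10 and 18 reads with GDF9, where Veh replicate 1 had a peak of 17 reads and Veh replicate 2 had none. A SMAD2 region with GDF9 covered the same place with 7 and 10 reads, and here too Veh replicate 1 had a peak, of 12 reads, and Veh replicate 2 none. At *Nr1d1* 2 SMAD2 and 3 SMAD4 regions were found with GDF9, 4 of the 5 within 3 kb of the start, and no SMAD2 or SMAD4 region with Veh. Veh replicates 1 and 2 did hold 3 and 1 SMAD2 peaks and 2 and 1 SMAD4 peaks within 20 kb, which did not overlap between replicates. A SMAD2 region with GDF9, of 13 and 12 reads, lay over the start, where Veh replicate 1 alone had a peak, of 9 reads. *Nr1h2* had a SMAD2 region over its start with 7 and 8 reads. *Nr2f6* had 3 SMAD2 regions and 1 SMAD4 region with GDF9. None of these 4 genes was called in RNA. *Rxra* had no region of any antibody in either line.

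In *Esr2* the highest SMAD signal lay about 9 kb inside the gene. In Smad2HA/+ cells the HA region with GDF9 was at chr12:76167842-76168732, in an intron, with its center 8972 bp from the start, and its maximum signal was 8.30 and 6.38 with GDF9, against 7.48 and 2.43 with Veh, or 171 and 144 reads against 182 and 68. SMAD2 had 4.68 and 2.96 with GDF9, against 3.87 and 1.02 with Veh, and SMAD3 had 4.05 and 2.96, against 4.93 and 2.94. Each of the 3 antibodies had a region with both treatments, and the values of the treatments overlapped for each. In the Smad3PA/PA lists this site had a peak in only 1 replicate each of PA (18 reads), SMAD2 (10 reads) and SMAD4 (8 reads) with GDF9 and in none with Veh, so it made no region there.

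The center of this site is the fourth sequence shown above. Of its 300 bases 96% are repeat-masked, and the unit TTTC occurs 50 times on the strand shown. Among the 60291 peaks of the HA list of GDF9 replicate 1, only 1.87% had at least 20 copies of this unit, on either strand, in the 300 bases at the highest point, and 41 of the 616 highest peaks, 6.66%, did. Reads of such repeats can be misplaced in alignment, and since IgG lists were not analysed here, the part of the repeat in this signal was not tested. A separate SMAD4 region of Smad3PA/PA cells lay over the start of *Esr2* with GDF9, with 7 and 4 reads and no Veh peak there. A Veh region without a GDF9 peak, of 8 and 4 reads, was centered 2633 bp inside the gene. Another SMAD4 region with GDF9 was centered at -19031 bp from the start, outside the gene and under H3K27ac of 0 lists. Both Veh replicates had a peak there. Its maximum signal was 1.41 and 3.18 with GDF9, against 2.499 and 2.05 with Veh, so the treatments overlapped. In all, 3 SMAD4 regions lay within 20 kb of *Esr2* with GDF9 and 4 with Veh.

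Near *Nr5a2* the SMAD signal of Smad2HA/+ cells was lower than at the *Esr2* site. In Smad2HA/+ cells an HA region with GDF9 at chr1:136947137-136951237, which covers the internal start, had a maximum signal of 0.728 and 0.797 with GDF9, against 0.740 and 0.752 with Veh. SMAD3 had a region there with 0.865 and 0.679 with GDF9, against 0.969 and 0.951 with Veh. SMAD2 had one with GDF9 at chr1:136943059-136944960 with 0.354 and 0.341, where Veh replicate 1 had 0.283 and Veh replicate 2 no peak. An overlapping SMAD2 region with Veh, at chr1:136943459-136949991, had 0.409 and 0.302. All lay under H3K27ac of the 4 lists of this line. Both SMAD3 values with GDF9 were below both with Veh, and this was not tested. The median maximum signal over all peaks of the GDF9 lists was 0.583 and 0.753 for HA. It was 0.511 and 0.479 for SMAD3, and 0.393 and 0.375 for SMAD2. In Smad3PA/PA cells no antibody had a region within 20 kb of *Nr5a2* with GDF9, and SMAD2 had one with Veh, centered at -245 bp from the outermost start, with 4 and 2 reads.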

How the data were processed

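The deposited RNA-seq table holds normalized counts, a signal the authors made by aligning reads to mm10 with STAR 2.7.11b, counting with featureCounts 2.1.1 and dividing by the size factors of DESeq2 1.48.2. Whole reads were recovered from all values (100%, tolerance 0.05 reads). Of 27179 entries 1314, with 0.311% of summed means, lacked values per library, and 3 unnamed columns were left out. The deposited peak lists give total and maximum signal, coverage that the authors aligned with Bowtie2, scaled to E. coli spike-in reads and called per library with SEACR. Not given in the sources used here are the control for peaks and the annotation and strand setting of counting. The 8 IgG samples were not analysed here.

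Genes with a mean of at least 10 were tested in R 4.3.3 with limma 3.58.1 (trend) on log2(value + 1), which understates changes of low genes. edgeR 4.0.16 and DESeq2 1.42.0 on recovered reads called 3.22% and 1.12% of genes with the same limits. The study's methods describe the CUT&RUN replicates as biological, from pooled cultured cells of 8 mice, and do not say this of the RNA libraries, so p-values for RNA cover only the spread among these samples, which may be technical. Exon lengths, starts and sequences are from RefSeq on GRCm38.p6. H3K27ac signal was summed within 20 kb of the start, each peak weighted by its share in the window, for genes with signal in all 4 lists of a line. Regions need an overlap of at least 1 bp. Alternatives were other offsets, filters, tools and scalings, a replicate block, libraries left out, windows, overlaps and starts. Named genes are all members and, of other lists, the called genes, with markers beside. Regions named other than those of *Esr2* and *Nr5a2* were chosen after their values were seen. So was the SMAD4 region over the start of *Esr2*. Members and lists were chosen with earlier results of these data known.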

Additional observations from a re-analysis of the deposited data

Results flagged for a closer look

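The H3K27ac signal within 20 kb of *Rxra* had opposite differences in the 2 lines, and neither was called. In Smad3PA/PA cells both GDF9 lists lay above both Veh lists, with a log2 fold change of 1.01 (SE 0.59). A peak covered the start of *Rxra* in 3 of the 4 lists of this line. In Smad2HA/+ cells both GDF9 lists lay below both Veh lists, with a log2 fold change of -0.30 (SE 0.15). The difference between the lines was not tested, since their lists were scaled and called separately. Of the RNA, which came from Smad3PA/PA cells, both GDF9 libraries were below both Veh libraries. No group held 4 or more samples, so single samples were not examined against their group.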

How the results depend on the processing

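Of 373 refits of single members under 13 alternatives, 7 lost a call, 0 gained one, 0 called members reversed, and 30 fits of 16 uncalled members had the other sign. *Esr2* lost its call without the filter on low values (adjusted p = 0.0878 with limma), with DESeq2, and without GDF9 replicate 1 or either Veh replicate, and *Nr5a2* with DESeq2 and without Veh replicate 1. Called members were 2 as reported, 1 without the filter, 0 with DESeq2 and 0 to 2 with 1 library left out. Over all genes 396 were called as reported, 187 without the filter, 141 with DESeq2 and 215 to 583 with 1 library left out, and DESeq2 gave no adjusted p to 1222 genes. For genes of the serving and target lists all alternatives gave 5 to 9 called, against 7 as reported. Deviations of replicate 1 from the group mean had correlations over genes, between treatments, of 0.018 in RNA and 0.00092 and 0.024 in H3K27ac. Such a correlation cannot show a shift common to a whole list, so pairing is not settled. The H3K27ac lists of Smad3PA/PA cells had median maximum signals of 13.6 and 21.5 in GDF9 replicates 1 and 2, and 14.5 and 18.8 in Veh replicates 1 and 2. With a replicate block 2 members and 535 genes were called in RNA, and 7 and 0 genes in H3K27ac of Smad3PA/PA and Smad2HA/+ cells, as without it. The 7 genes called for H3K27ac in Smad3PA/PA cells became 0 with lists centered, with the maximum signal or within 3 kb, and 0 to 3 with 1 list left out. In Smad2HA/+ cells 0 became 25 with the maximum signal. No alternative called a member for H3K27ac. The count of members with a SMAD region in Smad3PA/PA cells, 13 with GDF9 and 9 with Veh, was 4 and 4 within 3 kb, 27 to 28 and 26 to 27 from single replicates, and 5 with Veh where at least 50% of both peaks had to be shared. The causes of these shifts were not tested, apart from fewer libraries or a narrower window where these were the change. Depth limits the lowest members most, and the SMAD regions of Smad3PA/PA cells rest on 2 to 18 reads each.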
